A study of Mus musculus with 8 samples.

Results

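Cre Recurred cells were compared with GFP Recurred cells, that is, fibroblasts without and with RB that both grew back after cisplatin (CDDP). The comparison used 2 Cre Recurred and 2 GFP Recurred arrays, 4 of the 8 arrays of the series, chosen by their sample labels and not by any measured value. All cells were mouse adult fibroblasts (MAFs) from the peritoneal fascia of mice whose Rb1 gene is flanked by loxP sites. Cre Recurred cells had received adenovirus with GFP and Cre recombinase, which removes a floxed exon of Rb1, were exposed to CDDP for 24 h and recovered in fresh media. GFP Recurred cells had received adenovirus with GFP alone and then the same CDDP exposure and recovery. Both groups, and the untreated Cre Naïve and GFP Naïve cells that make up the other 4 arrays, also expressed p53DD from a retrovirus, a fragment of p53 that acts as a dominant negative. RB status was therefore compared in cells that all expressed p53DD, and p53 function in the recurred cells was not tested here. The methods describe separately generated cell populations for the arrays, and the mouse strain, age and number of animals are not given in the sources used here. The labels call the 2 arrays of a group biological replicates, and p values measure the spread between such arrays.

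RB, the product of Rb1, binds E2F transcription factors and holds back genes needed for DNA replication and mitosis until cyclin-dependent kinases release it. Fibroblasts make most of the collagenous matrix of connective tissue, and they secrete proteoglycans, proteases, Wnt modulators and chemokines through which they act on neighbouring cells. Cisplatin crosslinks DNA, and cells survive it through crosslink repair, drug export and checkpoint control.

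Cre Recurred cells had lower signals than GFP Recurred cells for many secreted and matrix genes of fibroblasts. Smaller positive differences were found for some genes of replication, mitosis and crosslink repair. Values are log2 signals from the Robust Multichip Average (RMA), and each gene was represented by its brightest probe set. Differences are Cre Recurred minus GFP Recurred, with the standard error from limma, n = 2 arrays per group, and p values adjusted over 45037 probe sets. Of 18193 genes, 875 were higher (4.81%) and 1191 lower (6.55%) at the thresholds that the study used, a 1.5-fold difference and a false discovery rate under 25%, taken as adjusted p values under 0.25. With an adjusted p under 0.05 and the same fold, here called the stricter threshold, 50 genes rose (0.275%) and 150 fell (0.824%), and the words rose and fell are kept for these. Counts in the gene lists below are to be read beside these shares of all genes. Counted in probe sets, 3988 passed the study's thresholds, 1836 of them higher, and 325 passed the stricter one, 99 of them higher. Large differences lay mostly on the lower side. A 16-fold difference or more was found at the study's thresholds for 8 probe sets that were higher and 76 that were lower. The median over all genes was 0.04, a value that the quantile normalization of the arrays holds near 0. No detection call was used, so a fold that involves a dim signal is a ratio of RMA signals and not of RNA amounts.

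**Figure D1:**
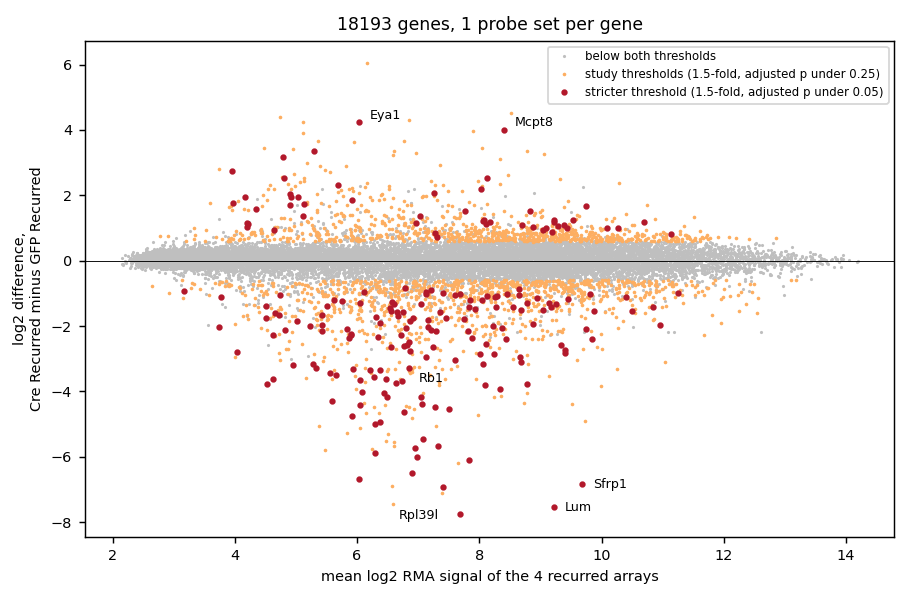
Log2 difference (Cre Recurred minus GFP Recurred) against the mean log2 RMA signal of the 4 recurred arrays, 1 point per gene. Orange points passed the study's thresholds (875 higher, 1191 lower) and red points the stricter one (50 rose, 150 fell), and the largest differences lie below 0.

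The genes that fell or rose were picked by this comparison, so agreement of the Cre Recurred arrays in direction is no separate result. The size of the differences varied between these arrays. On Cre Recurred replicate 1, the median log2 distance from the GFP Recurred mean was -2.26 for the genes that fell and 1.39 for those that rose. Cre Recurred replicate 2 had -1.97 and 1.22. The lower genes were further from the GFP Recurred mean on replicate 1 in 108 of 150 cases. Between replicates, 3842 probe sets differed by 1.5-fold or more in the Cre Recurred pair and 1455 in the GFP Recurred pair. The calls depended on single arrays. Leaving out Cre Recurred replicate 1 gave 0 probe sets at the stricter threshold and 270 at the study's. Leaving out GFP Recurred replicate 1 gave 0 and 346, and leaving out GFP Recurred replicate 2 gave 0 and 42. Leaving out Cre Recurred replicate 2 gave 275 and 4985, with 106 of the 325 among the 275. All 325 kept a 1.5-fold difference in each case. Their sign could not change, since the arrays of the compared groups did not overlap for any of them. For a single gene the exact permutation test has no two-sided p below 0.333 with 2 arrays per group, so the calls depend on limma's pooling of the spread over groups and genes. Arrays that were not compared also enter that pooled spread. Without either Cre Naïve array 1070 probe sets passed the stricter threshold, and without either GFP Naïve array 276.

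Rb1, the deleted gene, fell in Cre Recurred cells. Its brighter probe set had signals of 4.98 and 5.45 on the Cre Recurred arrays against 8.21 and 8.78 on the GFP Recurred arrays, so the groups did not overlap. The log2 difference was -3.28 (standard error 0.26, adjusted p = 0.015), a 9.73-fold lower signal. A second, dimmer probe set had -0.30 (adjusted p = 0.57). Signal left at the brighter probe set was not tested further, since where its probes lie relative to the deleted exon is not used here. No value is given for p53 itself, as no probe set carried Trp53 as its only symbol.

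The products of Sfrp1 and Sfrp2 are secreted antagonists that capture Wnt proteins before these reach a receptor. Sfrp1 had signals of 5.65 and 6.88 in Cre Recurred cells and 13.02 and 13.20 in GFP Recurred cells. It was thus 115-fold lower without RB (log2 difference -6.85, standard error 0.55, adjusted p = 0.015). All 5 of its probe sets fell, by 2.78 to 8.22 on the log2 scale. Sfrp2 had 3.66 and 3.62 in Cre Recurred cells, against 10.27 and 10.04 in GFP Recurred cells (log2 difference -6.51, adjusted p = 0.0491). Dkk3, a Dickkopf family protein, was lower at the study's thresholds only (-1.48, adjusted p = 0.068), and the other 10 of 13 measured secreted Wnt antagonists passed neither threshold, Sfrp5 among them with 0.39. The median of the 13 was 0.05, beside 0.04 for all genes.

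Among genes at their brightest probe set, the largest fall belonged to Rpl39l, a paralog of the ribosomal protein gene Rpl39. Its signals were 3.73 and 3.89 in Cre Recurred cells and 11.49 and 11.63 in GFP Recurred cells (log2 difference -7.75, standard error 0.76, adjusted p = 0.022). The promoters of Sfrp2 and Rpl39l are shown because both genes were dim, below the array median, in Cre Recurred cells and bright in GFP Recurred cells. Each runs from 250 bases before to 50 after the annotated start of the gene in RefSeq (GRCm38.p6), with CG dinucleotides, the sites at which mammalian DNA is methylated, in capitals.
Sfrp2, chr3:83766071-83766370, plus strand: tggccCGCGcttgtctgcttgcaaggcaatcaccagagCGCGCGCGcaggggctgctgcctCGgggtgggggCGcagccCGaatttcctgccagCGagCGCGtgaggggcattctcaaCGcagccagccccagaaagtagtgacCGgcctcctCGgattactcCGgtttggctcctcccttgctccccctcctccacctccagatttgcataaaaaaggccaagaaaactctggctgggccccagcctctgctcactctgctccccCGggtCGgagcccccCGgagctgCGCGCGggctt
Rpl39l, chr16:10169978-10170277, plus strand: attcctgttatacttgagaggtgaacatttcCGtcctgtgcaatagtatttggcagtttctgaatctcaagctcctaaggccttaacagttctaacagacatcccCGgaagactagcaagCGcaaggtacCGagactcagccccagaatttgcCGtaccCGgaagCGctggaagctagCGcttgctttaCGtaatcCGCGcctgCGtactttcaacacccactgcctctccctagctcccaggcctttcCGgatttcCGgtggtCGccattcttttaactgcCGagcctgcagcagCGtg
Sfrp2 holds 22 CG in these 300 bases and Rpl39l 17. Over the 14452 tested genes with such a promoter the median was 17, with 19 for the 118 that fell and 23 for the 39 that rose, so a high CG count was not limited to genes that fell. The arrays do not measure methylation, and nothing follows from the counts about it.

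Other deep falls joined matrix, signalling and vesicle genes. Lum encodes lumican, a small leucine-rich proteoglycan that organizes collagen fibrils. It had signals of 4.61 and 6.28 in Cre Recurred cells, against 12.86 and 13.13 in GFP Recurred cells (log2 difference -7.55, standard error 0.93, adjusted p = 0.036), a 187-fold fall. Scara3, a class A scavenger receptor family gene, had 2.98 and 2.42 in Cre Recurred cells and 9.39 and 9.35 in GFP Recurred cells (-6.67, adjusted p = 0.041). Chil1, which encodes a secreted chitinase-like protein, had 3.71 and 4.47 in Cre Recurred cells and 9.38 and 10.24 in GFP Recurred cells (-5.72, adjusted p = 0.033). For all 3 genes the gap between the groups was several times the gap between replicates. Tfpi2, a secreted Kunitz-type inhibitor of serine proteases, fell as well, with 3.90 and 3.90 in Cre Recurred cells and 8.65 and 9.04 in GFP Recurred cells (-4.94, standard error 0.36, adjusted p = 0.013). The urea transporter gene Slc14a1 fell by 5.88 on the log2 scale and Rab3c, a small GTPase of secretory vesicles, by 5.67. AW551984, Spats2l and Stox2 had log2 differences of -6.92, -6.11 and -5.46. Further probe sets of these 3 genes differed less, down to -0.28 for Stox2. Clu, which encodes the secreted chaperone clusterin, had 6.51 and 6.98 in Cre Recurred cells and 10.67 and 10.95 in GFP Recurred cells, and its 4 probe sets passed the study's thresholds but not the stricter one (-4.06 to -5.47, adjusted p from 0.078 to 0.11).

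**Figure D2:**
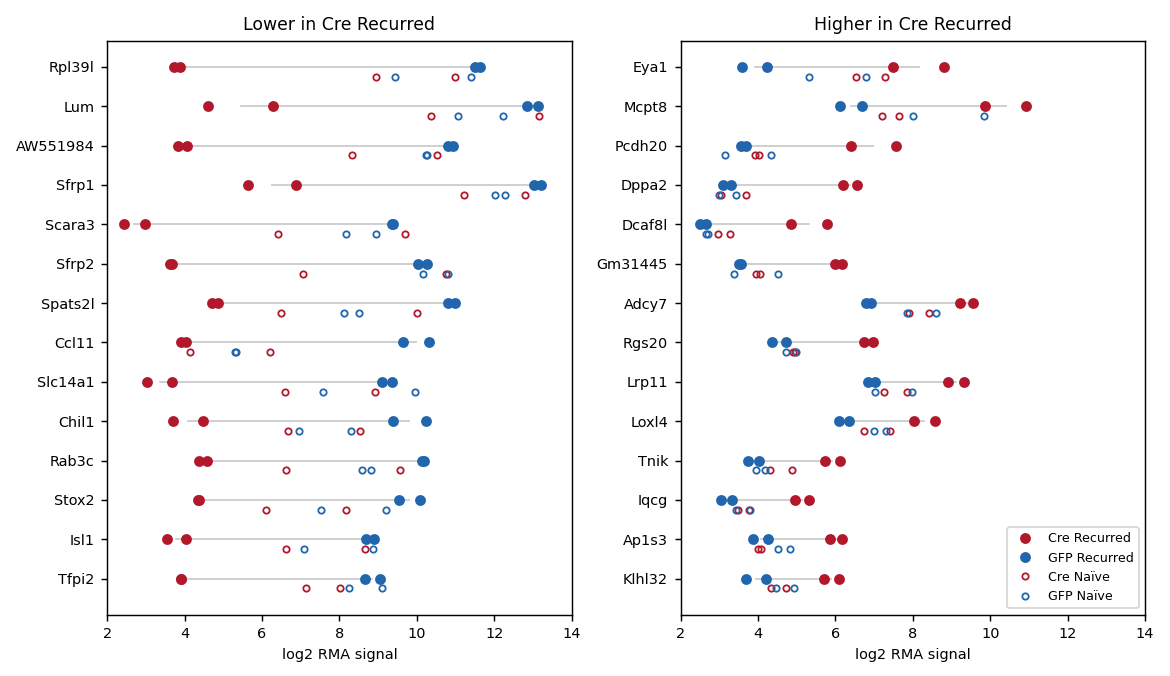
Log2 RMA signal on each array of the 14 genes with the largest falls (left) and the 14 with the largest rises (right) at the stricter threshold. Filled points are Cre Recurred (red) and GFP Recurred (blue) arrays, open points the naïve arrays of the same virus, and grey lines join the means of the recurred groups. Genes were chosen on condition that filled red and blue points do not overlap. Sfrp2 sits at 3.66 and 3.62 in Cre Recurred and 10.27 and 10.04 in GFP Recurred cells.

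The rises were smaller than the falls, with a median over the 50 genes of 1.25 on the log2 scale, against -2.12 over the 150 that fell. Eya1, a transcriptional coactivator and phosphatase that partners homeodomain proteins, had 8.81 and 7.48 in Cre Recurred cells, against 3.59 and 4.23 in GFP Recurred cells (log2 difference 4.23, standard error 0.60, adjusted p = 0.044), a 18.8-fold rise. Its other probe sets were at 0.98 and 1.10. Mcpt8, a mast cell protease family gene known from basophils, had 10.93 and 9.86 in Cre Recurred cells and 6.68 and 6.13 in GFP Recurred cells (3.996, adjusted p = 0.0474). Dppa2, a gene of pluripotent cells and the early embryo, had 6.19 and 6.55 in Cre Recurred cells and 3.09 and 3.29 in GFP Recurred cells (3.18, adjusted p = 0.015), and both of its probe sets rose. Adcy7, an adenylyl cyclase, rose at all 3 of its probe sets, with 9.55 and 9.23 in Cre Recurred cells and 6.91 and 6.80 in GFP Recurred cells at the brightest (2.54, adjusted p = 0.027). The protocadherin gene Pcdh20 rose as well (3.36), as did the lipoprotein receptor family gene Lrp11 (2.18), the kinase gene Tnik (2.04), the vesicle adaptor gene Ap1s3 (1.95) and the kelch gene Klhl32 (1.94). Of the other genes among the 14 largest rises, Iqcg had 1.95, Gm31445 2.54 and Dcaf8l 2.73. A further probe set of Klhl32 had -0.07 and one of Tnik 0.17. Gpr149, an orphan G protein-coupled receptor gene, was higher at the study's thresholds (9.42 and 7.43 in Cre Recurred cells, 5.75 and 6.47 in GFP Recurred cells, log2 difference 2.32, adjusted p = 0.14). Pla2g7, which encodes a secreted phospholipase that inactivates platelet-activating factor, was also higher at these thresholds (1.71, adjusted p = 0.18).

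Wnt ligands and their receptors were among the genes that fell, beside the Sfrp antagonists. Of 31 Wnt ligands, receptors and targets, 4 fell and 0 were higher at either threshold. Wnt5a, the ligand best known for signalling without beta-catenin, had 4.49 and 4.41 in Cre Recurred cells and 8.90 and 9.26 in GFP Recurred cells (-4.63, adjusted p = 0.0473). Its receptors Ror1 and Ror2 fell too. Ror2 had 5.35 and 6.48 in Cre Recurred cells, against 8.54 and 8.60 in GFP Recurred cells (-2.65, adjusted p = 0.036). Ror1 had -2.01 (adjusted p = 0.043) at its brightest probe set, whereas its other 2 had 0.13 and 0.33. The ligand gene Wnt4 fell, with 5.51 and 5.65 in Cre Recurred cells and 7.81 and 7.91 in GFP Recurred cells (-2.28). The list median was 0.05, close to that of all genes.

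Several families of matrix genes had members with lower signals. Of 12 small leucine-rich proteoglycans, 6 were lower and 0 higher at the study's thresholds, with a median of -1.32 beside 0.04 for all genes. Besides Lum, decorin (Dcn) had 10.95 and 12.53 in Cre Recurred cells, against 13.21 and 13.48 in GFP Recurred cells (-1.60, adjusted p = 0.15), asporin (Aspn) -3.94 and osteomodulin (Omd) -0.96. Cre Recurred replicate 1 was lower than replicate 2 here, with list medians of -1.95 and -0.74 from the GFP Recurred mean. Of 45 matrix glycoproteins and crosslinking enzymes, 13 were lower and 4 higher (median -0.59). Thrombospondin 2 (Thbs2) had 9.47 and 9.51 in Cre Recurred cells and 12.50 and 12.66 in GFP Recurred cells (-3.09, adjusted p = 0.0524), and tenascin C (Tnc) had 10.30 and 10.78 and, in GFP Recurred cells, 12.78 and 12.86 (-2.28, adjusted p = 0.0524). Loxl4, a lysyl oxidase that crosslinks collagen, went the other way and rose (8.56 and 8.04 in Cre Recurred cells, 6.08 and 6.35 in GFP Recurred cells, log2 difference 2.08, adjusted p = 0.04). Of 28 collagens, 4 were lower and 3 higher. The fibril-associated collagens Col14a1 (-2.18) and Col12a1 (-2.14) were lower and the short-chain collagen Col8a1 (1.28) and the basement membrane collagen Col4a6 (0.65) higher, all at the study's thresholds only. The collagen median was -0.26, but 0.04 without Cre Recurred replicate 1.

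Some proteases that cut the matrix, and some of their inhibitors, were lower. Of 24 metalloproteinases and inhibitors, 9 were lower and 1 higher (median -0.58). Timp3, an inhibitor bound to the matrix, fell (9.46 and 9.99 in Cre Recurred cells, 10.97 and 11.58 in GFP Recurred cells, log2 difference -1.55, adjusted p = 0.0496). Stromelysin 1 (Mmp3) had 7.27 and 7.29 in Cre Recurred cells and 12.57 and 11.81 in GFP Recurred cells (-4.91, adjusted p = 0.062), and collagenase 3 (Mmp13) 7.55 and 4.75 and, in GFP Recurred cells, 10.06 and 10.58 (-4.17). The Cre Recurred arrays differed from each other by 2.80 on the log2 scale for Mmp13. Mmp23 was lower as well (-3.73). Among 16 plasminogen activators, serpins and related inhibitors, 5 were lower, with Tfpi2 and the C1 inhibitor gene Serping1 (-3.33, adjusted p = 0.074) in front, and 1 was higher. That gene, Serpinb2, encodes plasminogen activator inhibitor 2 and had 10.14 and 9.62 in Cre Recurred cells and 5.29 and 6.55 in GFP Recurred cells (3.96, adjusted p = 0.072). Tissue plasminogen activator (Plat) was lower (-1.20, adjusted p = 0.095).

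**Figure D3:**
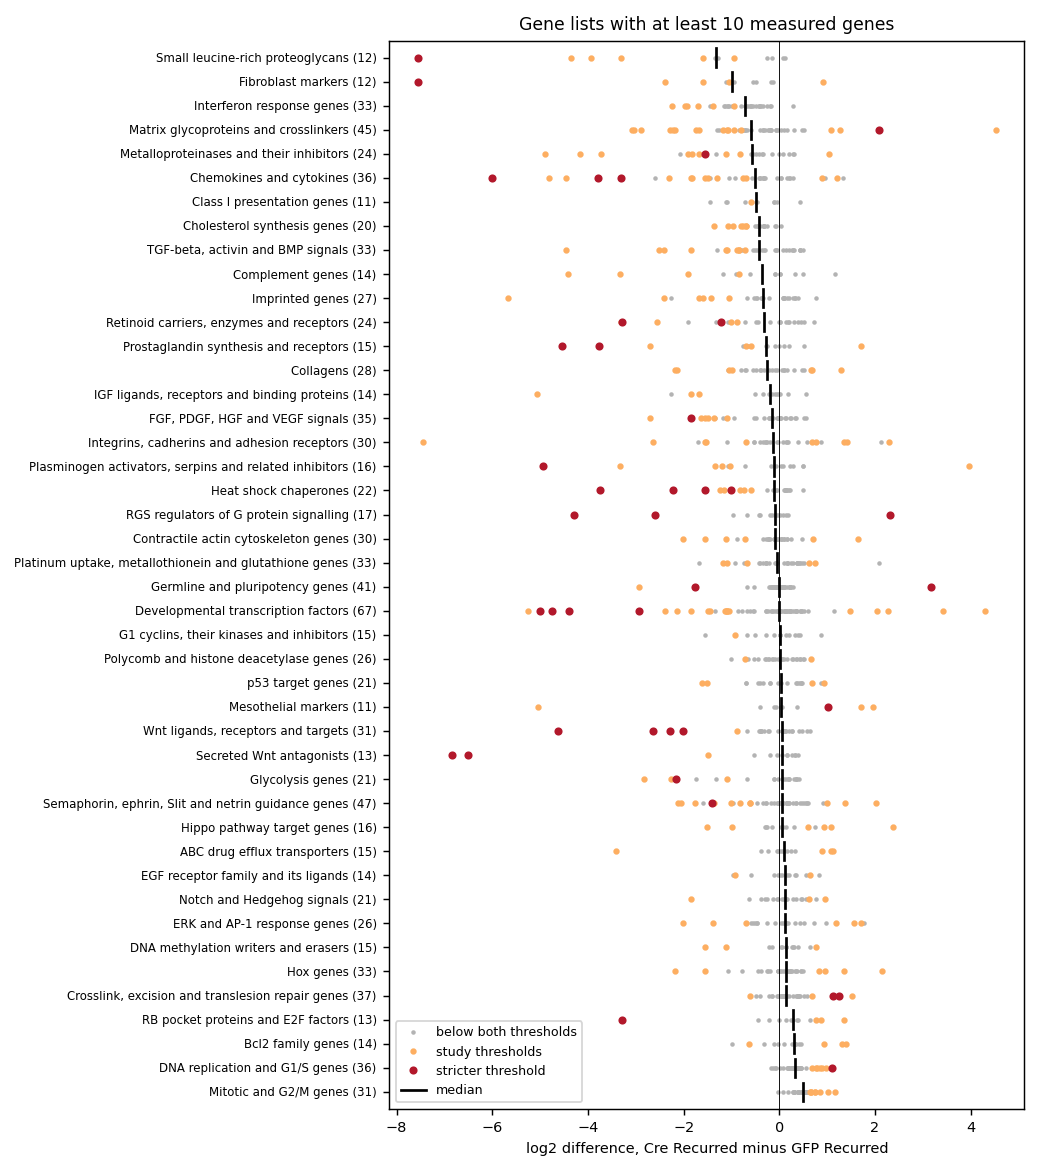
Log2 difference (Cre Recurred minus GFP Recurred) of every measured gene in each list of at least 10 genes, with the number of genes in brackets and the list median as a black bar. Small leucine-rich proteoglycans have the lowest median (-1.32) and mitotic genes the highest (0.48).

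Adhesion receptors split in both directions, with 5 higher and 5 lower of 30 at the study's thresholds and none at the stricter one. The neural adhesion molecule gene Chl1 had 3.05 and 2.67 in Cre Recurred cells and 10.34 and 10.26 in GFP Recurred cells (-7.44, standard error 1.34, adjusted p = 0.063). Vcam1, the ligand of alpha 4 integrins, had 8.57 and 8.65 in Cre Recurred cells and 11.18 and 11.32 in GFP Recurred cells (-2.64, adjusted p = 0.065). Integrin alpha 8 (Itga8) was lower (-1.56, adjusted p = 0.0533) and integrin beta 1 (Itgb1) higher (0.69, adjusted p = 0.1). Of 47 semaphorin, ephrin, Slit and netrin guidance genes, 9 were lower and 3 higher. The ephrin receptor gene Ephb4 fell (7.10 and 7.16 in Cre Recurred cells, 8.48 and 8.61 in GFP Recurred cells, log2 difference -1.42), while Sema3c (-1.76) and Sema3a (1.37) differed in opposite directions at the study's thresholds.

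Fibroblasts call in immune cells through chemokines and cytokines, some of which were lower. Of 36 measured, 13 were lower and 2 higher at the study's thresholds, with a median of -0.50, and 3 fell. Ccl11 (eotaxin) had 3.90 and 4.04 in Cre Recurred cells and 9.65 and 10.32 in GFP Recurred cells (-6.01, standard error 0.59, adjusted p = 0.022), and the monocyte chemokine Ccl8 6.59 and 7.17 and, in GFP Recurred cells, 10.40 and 10.92 (-3.78, adjusted p = 0.043). Tnfrsf11b, which encodes the decoy receptor osteoprotegerin, had 4.35 and 4.19 in Cre Recurred cells and 7.40 and 7.76 in GFP Recurred cells (-3.31, adjusted p = 0.012). For these 3 genes the GFP Recurred signals also lay above every naïve array, with GFP Naïve signals of 5.31 and 5.32 for Ccl11 and 5.41 and 4.97 for Tnfrsf11b. The interleukin 1 receptor antagonist gene Il1rn was lower at the study's thresholds (-4.47, adjusted p = 0.0524).

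Interferon response genes had negative differences nearly throughout, though few passed. Of 33 measured, 32 had a negative difference, 6 of them passed the study's thresholds and 0 were higher, with a median of -0.72. Between Cre Naïve and GFP Naïve cells the list also leaned this way, with 3 of 33 positive and a median of -0.37. Irf7, the interferon regulatory factor that amplifies the response, had 6.35 and 5.99 in Cre Recurred cells, against 7.31 and 8.96 in GFP Recurred cells (-1.97, adjusted p = 0.11). Zbp1 (-1.93), Dhx58 (-1.71) and Ddx58 (-0.95), all sensors of foreign nucleic acid or their partners, were lower too. GFP Recurred replicate 2 was the brighter of its pair for all 4 genes, by 1.65 for Irf7. Of 11 class I presentation genes 10 were negative (median -0.48, with -0.31 between the naïve groups), but only Tapbp, which loads peptides, passed (-0.59). Among 14 complement genes, 4 were lower, with Cd55, a brake on complement, at -4.43 (adjusted p = 0.11) and Masp1 at -0.85.

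In the TGF-beta, IGF and FGF lists the genes that passed were lower. Of 33 TGF-beta, activin and BMP signals, 10 were lower and 0 higher (median -0.43). Tgfb1 had 7.95 and 8.06 in Cre Recurred cells and 9.06 and 9.21 in GFP Recurred cells (-1.12, adjusted p = 0.0533), the activin subunit gene Inhbb -2.52, Bmp4 -2.41 and the activin antagonist gene Fstl3 -1.86. Of 14 insulin-like growth factor genes, 3 were lower and 0 higher. Igfbp3, the main carrier of IGFs in plasma, had 3.90 and 5.60 in Cre Recurred cells and 9.99 and 9.66 in GFP Recurred cells (-5.07, adjusted p = 0.057), and Igf1 itself 6.40 and 7.30 and, in GFP Recurred cells, 8.84 and 8.57 (-1.86, adjusted p = 0.073). Of 35 FGF, PDGF, HGF and VEGF signals, 7 were lower and 0 higher, and the Tie2 ligand gene Angpt1 fell (-1.84, adjusted p = 0.0473). The receptor gene Fgfr1 was lower at the study's thresholds (-1.09, adjusted p = 0.0524), and so were the ERK brakes Spry1 (-2.01) and Spry2 (-1.39). Both Spry genes belong to the list of ERK and AP-1 response genes, in which 3 of 26 were higher and 3 lower (median 0.11).

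Genes of lipid mediators, G protein signalling and retinoids held some of the clearest falls. Ptges, the inducible prostaglandin E synthase, had 5.03 and 5.42 in Cre Recurred cells and 9.78 and 9.76 in GFP Recurred cells (-4.55, adjusted p = 0.0474). Ptger2, a receptor of the same prostaglandin, had 2.62 and 2.68 in Cre Recurred cells and 6.33 and 6.49 in GFP Recurred cells (-3.76, adjusted p = 0.027). In this list of 15, 5 were lower and 1, Pla2g7, was higher. RGS proteins shut off G protein signals, and of 17 measured Rgs2 (-4.28) and Rgs4 (-2.59) fell while Rgs20 rose. Rgs20 had 6.97 and 6.73 in Cre Recurred cells and 4.35 and 4.73 in GFP Recurred cells (2.31, standard error 0.18, adjusted p = 0.014), although 1 of its other 2 probe sets had 0.07. A further probe set of Rgs2 had 0.06. Of 24 retinoid genes, 6 were lower and 0 higher. The retinol carrier gene Rbp4 fell, with 3.25 and 4.12 in Cre Recurred cells and 6.61 and 7.35 in GFP Recurred cells (-3.29, adjusted p = 0.027), as did the nuclear receptor gene Rxra (-1.22), whose other 2 probe sets had -0.21 and -0.02.

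Heat shock chaperones included the gene with the smallest adjusted p of all lists. Hspa1a, the inducible Hsp70, had 4.64 and 4.88 in Cre Recurred cells and 8.57 and 8.44 in GFP Recurred cells, a 13.4-fold fall (log2 difference -3.75, standard error 0.22, adjusted p = 0.01). Its co-chaperone of the Hsp40 family Dnaja4 had 4.90 and 4.68 in Cre Recurred cells and 7.19 and 6.86 in GFP Recurred cells (-2.23, adjusted p = 0.016). The small heat shock proteins Hspb1 (-1.004) and Hspb6 (-1.55) fell too. Of 22 chaperones, 9 were lower and 0 higher, but the median was -0.10. Hspa1a shares much of its sequence with its neighbour Hspa1b, and its probes may not tell them apart.

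Cholesterol synthesis genes had small negative differences. Of 20, 19 were negative and 7 passed the study's thresholds, with a median of -0.44, led by Dhcr7 (-1.37, adjusted p = 0.074), Tm7sf2 (-1.08) and Hsd17b7 (-0.97), all of its late steps. Squalene epoxidase (Sqle), a rate-limiting step, had 10.67 and 11.05 in Cre Recurred cells and 11.60 and 11.53 in GFP Recurred cells (-0.71). In naïve cells the same list had a median of 0.32 between Cre and GFP arrays, with 18 of 20 positive. The difference between these medians was not tested, and none of the list's genes passed the interaction test given further on. Glycolysis genes were mixed, with Pfkfb3, a regulator of the pathway, falling (-2.15, with 0.11 at its other probe set), the glucose transporter gene Slc2a3 lower at the study's thresholds (6.37 and 6.70 in Cre Recurred cells, 9.34 and 9.41 in GFP Recurred cells, log2 difference -2.84) and a list median of 0.05.

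**Figure D4:**
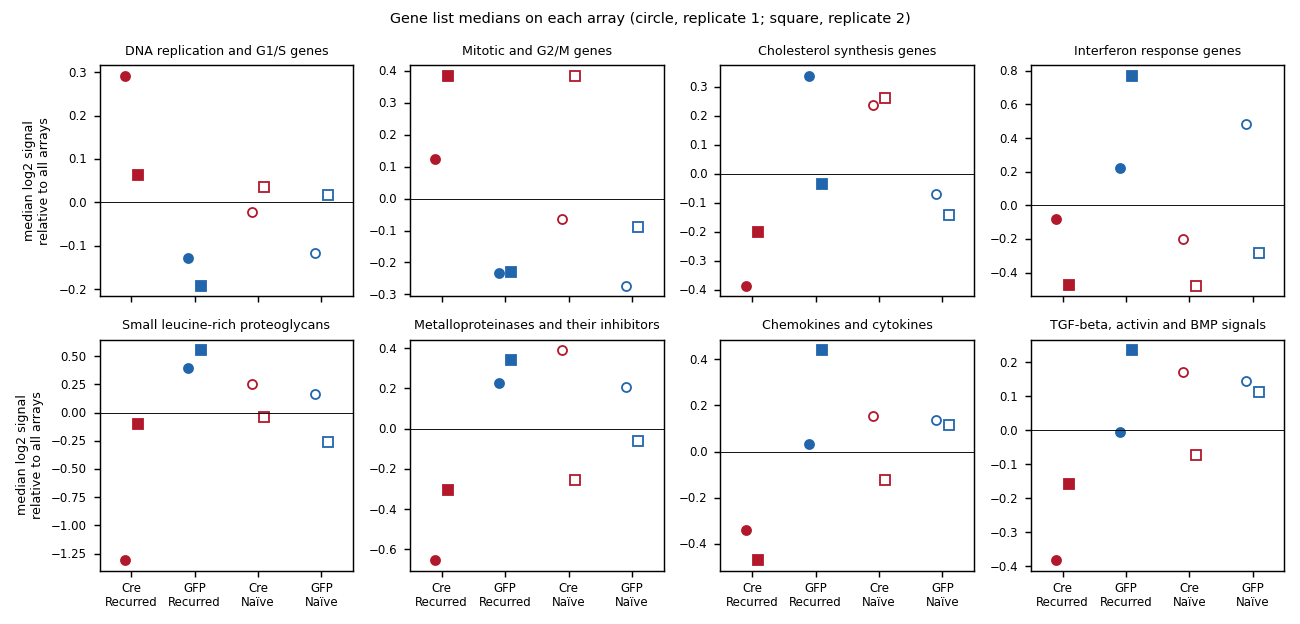
Median log2 signal of 8 gene lists on each array, relative to each gene's mean over all 8 arrays. Filled symbols are recurred and open symbols naïve cells, and each panel has its own scale. Both Cre Recurred arrays lie above both GFP Recurred arrays for the replication and mitotic lists and below them for the other 6.

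Most cell cycle genes had small positive differences, and a minority passed. Of 36 DNA replication and G1/S genes, 32 had a positive difference, 7 were higher and 0 lower at the study's thresholds, with a median of 0.34. Gins1, a subunit of the replicative helicase complex, rose (10.07 and 9.77 in Cre Recurred cells, 8.80 and 8.86 in GFP Recurred cells, log2 difference 1.09, standard error 0.14, adjusted p = 0.038). The primase gene Prim1 (0.98, adjusted p = 0.0505), the origin licensing factor gene Cdt1 (0.90, adjusted p = 0.058) and Gins3 (0.85, adjusted p = 0.071) were higher at the study's thresholds. Other E2F targets had log2 differences of 0.20 for Mcm7 and 0.31 for Pcna, neither of which passed. Of 31 mitotic and G2/M genes, 30 were positive, 8 higher and 0 lower (median 0.48). Between the naïve groups 31 of 31 were positive (median 0.31). Mybl2, which switches on mitotic genes, had 9.13 and 8.60 in Cre Recurred cells and 7.70 and 7.72 in GFP Recurred cells (1.15, adjusted p = 0.083), and cyclin A2 (Ccna2) 11.61 and 11.97 and, in GFP Recurred cells, 10.96 and 11.11 (0.75, adjusted p = 0.18). For the mitotic list, Cre Naïve replicate 2 was as high as Cre Recurred replicate 2, both at 0.38 relative to the mean of all arrays.

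Of 13 pocket protein and E2F genes, 3 were higher and 1, Rb1, lower (median 0.28). The pocket protein gene Rbl1 (p107) was higher, with 9.54 and 9.82 in Cre Recurred cells and 8.57 and 9.04 in GFP Recurred cells (0.88, adjusted p = 0.088). The repressor E2Fs that E2F activity itself induces, E2f8 (9.98 and 9.40 in Cre Recurred cells, 8.14 and 8.54 in GFP Recurred cells, log2 difference 1.35) and E2f7 (0.76), were higher as well. The promoters of Rbl1 and Cdt1 are shown because both genes are textbook E2F targets that were higher without RB. They follow the same window and source, with matches to TTTNNCGC, an E2F recognition motif searched on both strands, in capitals.
Rbl1, chr2:157204485-157204784, minus strand: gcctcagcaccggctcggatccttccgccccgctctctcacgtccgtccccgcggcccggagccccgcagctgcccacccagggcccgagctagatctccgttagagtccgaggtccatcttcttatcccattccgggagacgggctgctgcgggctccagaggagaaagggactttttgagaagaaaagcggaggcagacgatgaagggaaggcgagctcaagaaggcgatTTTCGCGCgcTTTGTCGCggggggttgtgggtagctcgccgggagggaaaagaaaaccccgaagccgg
Cdt1, chr8:122567765-122568064, plus strand: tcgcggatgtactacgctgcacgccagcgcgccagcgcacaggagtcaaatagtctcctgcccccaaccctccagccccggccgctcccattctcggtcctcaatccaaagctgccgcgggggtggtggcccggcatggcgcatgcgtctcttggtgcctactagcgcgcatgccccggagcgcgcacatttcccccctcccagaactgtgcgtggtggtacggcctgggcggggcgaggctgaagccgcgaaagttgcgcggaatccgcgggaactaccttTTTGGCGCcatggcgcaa
This motif was found in 7.28% of the 14452 promoters. It was in 41.9% of the 31 replication and G1/S promoters and 8% of the 25 mitotic ones. Of the genes higher at the study's thresholds 9.41% held it (65 of 691), and of those lower 4.72% (44 of 933). A match is a description of the letters and not of binding.

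Among cyclins and inhibitors upstream of RB a single gene passed the study's thresholds, at which 4.81% of all genes were higher and 6.55% lower. Of 15 G1 cyclins, kinases and inhibitors, 0 were higher and 1, cyclin D2 (Ccnd2), was lower (11.31 and 11.05 in Cre Recurred cells, 12.25 and 11.98 in GFP Recurred cells, log2 difference -0.93, adjusted p = 0.14). Ccnd1 (cyclin D1) had 0.44 (adjusted p = 0.41), and the p21 gene Cdkn1a 0.87 (adjusted p = 0.34), with 9.85 and 10.01 in Cre Recurred cells and 8.66 and 9.45 in GFP Recurred cells. Cdkn2a, which encodes the inhibitor p16, had 7.58 and 9.08 in Cre Recurred cells and 10.48 and 9.29 in GFP Recurred cells (-1.55, adjusted p = 0.39), the largest difference of the list, and is named here after its values were seen. With 2 arrays per group, a gene that did not pass is not shown to be equal. Of 21 p53 target genes, 2 were higher and 2 lower, around a median of 0.02. The death receptor gene Fas was lower (-1.62, adjusted p = 0.15) and the receptor gene Tnfrsf10b higher (0.69).

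Genes that repair cisplatin damage included rises. The Fanconi anaemia pathway unhooks interstrand crosslinks, and its core complex gene Fanca had 8.86 and 8.53 in Cre Recurred cells and 7.48 and 7.42 in GFP Recurred cells (1.24, standard error 0.14, adjusted p = 0.027). Fancl, the ubiquitin ligase subunit, had 8.56 and 8.77 in Cre Recurred cells and 7.44 and 7.67 in GFP Recurred cells (1.11, adjusted p = 0.038), with 0.11 at its other probe set. The translesion polymerase gene Poli was higher at the study's thresholds (1.51, adjusted p = 0.069). In all, 4 of 37 crosslink, excision and translesion repair genes were higher and 1 lower (median 0.14). Of 6 mismatch repair genes, 2 were higher, Msh6 (0.87, adjusted p = 0.0535) and Exo1 (0.71).

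Drug handling and survival genes passed the study's thresholds only, at which 4.81% of all genes were higher and 6.55% lower. Among 15 ABC efflux transporters 3 were higher, the multidrug pumps Abcb1b (0.89) and Abcb1a (1.07, adjusted p = 0.24) and Abcc4 (1.13), and 1 was lower, Abcc3, with 4.45 and 5.93 in Cre Recurred cells and 8.34 and 8.87 in GFP Recurred cells (-3.41, adjusted p = 0.069). Of 33 platinum uptake, metallothionein and glutathione genes, 2 were higher and 3 lower. Gclc, the rate-limiting enzyme of glutathione synthesis, had 0.74 and the glutathione transferase gene Gstm5 -0.67. Bcl2, the founding survival gene of its family, had 8.46 and 8.07 in Cre Recurred cells and 6.80 and 7.11 in GFP Recurred cells (1.31, adjusted p = 0.0524). Its relative Bok, a death effector, was higher too (1.40, adjusted p = 0.098), and of 14 family genes 3 were higher and 1, Bcl2l2, was lower.

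Several regulators of cell identity fell. Of 67 developmental transcription factors, 15 were lower and 5 higher. The LIM homeodomain gene Isl1 had 4.03 and 3.54 in Cre Recurred cells, against 8.68 and 8.90 in GFP Recurred cells (-5.00, adjusted p = 0.0469), and Irx2, of the Iroquois family, 3.91 and 3.17 and, in GFP Recurred cells, 8.39 and 8.18 (-4.75, adjusted p = 0.0474). The zinc finger gene Tshz2 (-4.40, adjusted p = 0.016) and the forkhead gene Foxf1 (-2.93, adjusted p = 0.049), which patterns mesoderm, fell as well. Of 33 Hox genes, 4 were higher and 2 lower, among them Hoxa7 (1.34) on the higher side and Hoxa10 (-1.55) and Hoxc10 (-2.17) on the lower. Of 27 genes in the imprinted list, 6 were lower and 0 higher, with Nckap1 counted in place of H19. Nnat, neuronatin, had 3.94 and 3.59 in Cre Recurred cells and 9.64 and 9.23 in GFP Recurred cells (-5.67, adjusted p = 0.063), and Plagl1 -2.41. Among 41 germline and pluripotency genes, Dppa2 rose, the meiotic cohesin gene Stag3 fell (-1.76, adjusted p = 0.0469), and the germ cell helicase gene Ddx4 was lower at the study's thresholds (-2.94, adjusted p = 0.24).

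Among genes for chromatin marks, none passed the stricter threshold. At the study's thresholds, 4.81% of all genes were higher and 6.55% lower. Of 15 DNA methylation writers, readers and erasers, 1 was higher, Uhrf1 (0.77, adjusted p = 0.11), which brings the maintenance methyltransferase to replicating DNA, and 2 were lower, Dnmt3l (-1.56) and Zbtb4 (-1.11). Of 26 Polycomb and histone deacetylase genes, Suz12 was higher (0.67, adjusted p = 0.099) and Hdac5 lower (-0.73). The remaining lists had calls on both sides, to be read beside the same shares of all genes. EGF receptor family genes and ligands had 1 higher and 1 lower of 14, ERK and AP-1 response genes 3 and 3 of 26, Notch and Hedgehog signals 2 and 1 of 21, contractile actin genes 2 and 4 of 30, and Hippo pathway targets 4 and 2 of 16.

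Fibroblast markers had mostly negative differences, though unevenly. Of 12 fibroblast markers, 11 had a negative difference, and at the study's thresholds 4 were lower, Lum among them, and 1 higher (median -0.99). Cre Recurred replicate 1 had a list median of -1.61 from the GFP Recurred mean and Cre Recurred replicate 2 one of -0.24. Fap, an activation marker of fibroblasts, had 3.65 and 5.24 in Cre Recurred cells and 6.48 and 7.18 in GFP Recurred cells (-2.39), the mesenchymal factor gene Prrx1 -1.05, and Thy1, a surface marker of fibroblasts, 9.92 and 9.93 and, in GFP Recurred cells, 9.04 and 8.99 (0.91). Markers of other cell types were measured beside them. None of 8 epithelial, 7 macrophage, 6 endothelial or 4 smooth muscle markers passed, and Cdh1, the epithelial cadherin, lay between 2.71 and 2.85 on the recurred arrays. Of 11 mesothelial markers, the keratin gene Krt7 rose (4.64 and 4.78 in Cre Recurred cells, 3.73 and 3.65 in GFP Recurred cells, log2 difference 1.02), mesothelin (Msln) was higher (8.85 and 7.82 in Cre Recurred cells, 6.87 and 6.38 in GFP Recurred cells, log2 difference 1.71, adjusted p = 0.073), Krt19 was higher (1.97), and Bnc1 was lower (2.76 and 2.96 in Cre Recurred cells, 7.93 and 7.89 in GFP Recurred cells, log2 difference -5.05). The list median was 0.04, and on each array it lay between 0.02 and 0.13 in Cre Recurred cells and between -0.06 and -0.03 in GFP Recurred cells, relative to all arrays. Of 5 skeletal muscle markers, Myf5 (7.05 and 6.80 in Cre Recurred cells, 2.75 and 2.32 in GFP Recurred cells, log2 difference 4.38, adjusted p = 0.16) and desmin (Des, 1.65) were higher, while Myod1 (0.14) and Myog (0.27) did not pass. The adipocyte factor gene Pparg was lower (-2.34). Fewer cells of a type and less RNA per cell cannot be told apart in such samples, and the part of other cell types in the results was not tested.

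The naïve arrays gave the same comparison of RB status without CDDP. Between Cre Naïve and GFP Naïve cells 0 probe sets passed the study's thresholds in limma (0% of 45037, with 1159 at an unadjusted p under 0.05), although some lists, such as the interferon and mitotic ones, leaned the same way there. The test of the difference itself, the interaction of RB status with recurrence, gave 180 probe sets (0.4%) at those thresholds, 70 of them positive, and 0 at the stricter one (smallest adjusted p 0.056, with 4656 probe sets at an unadjusted p under 0.05). The 6 genes with the smallest adjusted p were Tnfrsf11b, 2210016F16Rik, Klhl23, Hspa1a, Ap1s3 and Dnaja4. Tnfrsf11b had 6.17 and 6.62 in Cre Naïve cells and 5.41 and 4.97 in GFP Naïve cells, a difference of 1.21 against -3.31 in recurred cells (interaction -4.51, standard error 0.32, adjusted p = 0.056). Hspa1a had 8.49 and 7.99 in Cre Naïve cells and 8.27 and 8.72 in GFP Naïve cells (interaction -3.49, adjusted p = 0.091). Klhl23, a kelch gene, fell in recurred cells, with 4.11 and 4.07 in Cre Recurred and 5.88 and 5.98 in GFP Recurred cells (-1.84), and had a naïve difference of 0.45 (interaction -2.29, adjusted p = 0.056). 2210016F16Rik had 6.28 and 6.49 in Cre Recurred and 10.37 and 10.23 in GFP Recurred cells (-3.91, adjusted p = 0.0097) against a naïve difference of -0.22. Rb1 itself had 6.21 and 5.72 in Cre Naïve and 7.98 and 8.07 in GFP Naïve cells, and its interaction did not pass (-1.22, adjusted p = 0.38). Its naïve difference of -2.06 did not pass either (adjusted p = 0.997 in limma), although Rb1 is the deleted gene. The 0 calls between the naïve groups therefore do not show that RB made no difference without CDDP. The interaction count was 0 when Cre Recurred replicate 1 or either GFP Recurred array was left out. It was 15 without GFP Naïve replicate 1, 371 without GFP Naïve replicate 2, 1611 without Cre Naïve replicate 2 and 2953 without Cre Recurred replicate 2.

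The naïve cells also place each recurred group. Of the 150 genes that fell, 140 had both Cre Recurred arrays below all 4 naïve arrays, and 67 had both GFP Recurred arrays above them. Of the 50 that rose, 47 had both Cre Recurred arrays above all naïve arrays and 36 had both GFP Recurred arrays below them. These genes were picked for a gap between the recurred groups, which favours such positions. The same counts were not made over all genes, so they describe the called genes only. Mcpt8 is one of the genes low in GFP Recurred cells, where it had 6.68 and 6.13 against 9.84 and 7.99 in GFP Naïve cells. Cre Naïve replicate 2 stood apart from its pair and was closest to Cre Recurred replicate 2 (Pearson r across probe sets 0.9917, against 0.9855 with Cre Naïve replicate 1). On this array 120 of the 150 genes that fell lay below the GFP Naïve mean, by a median of 0.37, beside 8326 of all 18193 genes. On Cre Naïve replicate 1 the numbers were 57 of 150 and 9838 of 18193. Sfrp2, for example, had 10.76 and 7.05 on the Cre Naïve arrays and 10.82 and 10.15 on the GFP Naïve arrays, and Bnc1 7.76 and 3.94 and, on the GFP Naïve arrays, 7.74 and 8.66. Whether that array differs in its cells or in its handling was not tested.

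Differences in signal also followed chromosomes. Among the 11218 genes brighter than the median probe set, 6.61% were higher and 9.60% lower at the study's thresholds. On chromosome 8, 105 of 618 such genes were higher (17.0%) and 36 lower (5.83%), with a median log2 difference of 0.23 beside 0.01 for all 11218. Both Cre Recurred arrays had it, at 0.22 and 0.27 from the GFP Recurred mean. Chromosome 3 had 15.4% higher (median 0.26) and chromosome 10 had 11.5% higher (median 0.18), while chromosome 13 had 13.8% lower (median -0.17) and chromosome 7 had 15.6% lower (median -0.13). Between the GFP Recurred replicates the chromosome medians differed by -0.05 to 0.08. Between the GFP Naïve replicates they differed by as much as 0.26 on chromosome 6 and -0.26 on chromosome 10. Arrays of 1 group can thus differ in this way too, and chromosome 3 was also at 0.23 on Cre Naïve replicate 2. Along chromosome 8 in gene order, the first eighth, from Insr to Vdac3, had a median of 0.07 and the next, from Polb to Sorbs2, -0.06. Each of the other 6 eighths, from Ufsp2 to the end, had between 0.25 and 0.37. Fanca, Cdt1, Gins3, Adcy7 and Itgb1, named above as higher, lie on chromosome 8, and so do Sfrp1 and Stox2, which fell. The part of these chromosome-wide differences in the calls of single genes was not tested.

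**Figure D5:**
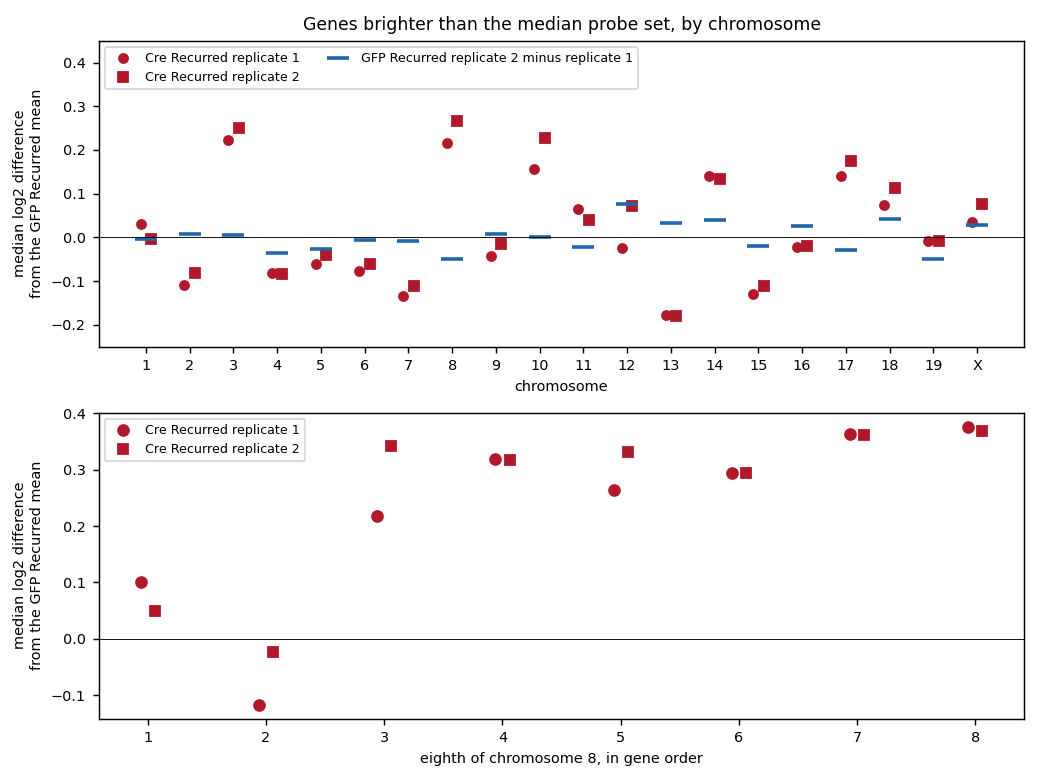
Top, median log2 difference of each Cre Recurred array from the mean of the GFP Recurred arrays for genes of each chromosome, with the difference between the GFP Recurred replicates as blue bars. Bottom, the same along chromosome 8 in 8 groups of neighbouring genes. Chromosomes 3 and 8 lie highest and chromosome 13 lowest on both Cre Recurred arrays.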

How the data were processed

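Affymetrix mouse expression arrays had been run on RNA from 2 Cre Recurred, 2 GFP Recurred, 2 Cre Naïve and 2 GFP Naïve samples. The authors deposited log2 signals, made with RMA by the submitters' processing notes, a method of background correction, quantile normalization and summary over each probe set's probes. Its software version is not given in the sources used here. The signals were used as deposited, with array medians from 5.38 to 5.41. After leaving out 64 control probe sets, 45037 were tested, of which 34945 carried 1 gene symbol, giving 18193 genes.

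One mean per group was fitted to all 8 arrays with limma 3.58.1 in R 4.3.3 (4 residual and 3.07 prior degrees of freedom), which was tested on simulated data first. The study called changes with SAM, and a SAM-type statistic was an alternative, as were other priors, treat at 1.2-fold, cyclic loess, median centring, the compared arrays alone, a replicate block, leaving out each array and filters on probe sets. The number of arrays limits the precision.

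Chromosomes, gene order and promoters came from RefSeq (GRCm38.p6). The comparison and 51 gene lists were chosen with earlier results of these data known. Matching by synonym put Nckap1 in the imprinted list for H19, Pigq in the glycolysis list for Gpi1 and Loxl3 in the matrix list for Loxl2. Each of these lists therefore holds a gene that was not meant, and its counts and median include that gene. Named genes were a set of study and marker genes, the 14 largest rises and 14 largest falls at the stricter threshold, the leading genes of each list by adjusted p (at most 4), and 6 genes with the smallest interaction p. The largest rises and falls were taken from genes whose Cre Recurred and GFP Recurred arrays did not overlap. Genes that bound parts of chromosome 8 were named by position after seeing the values.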

Additional observations from a re-analysis of the deposited data

Results flagged for a closer look

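For 31 genes named in the report, the RB difference in recurred cells differed from that in naïve cells in limma's interaction test (1.5-fold and adjusted p under 0.25 over 45037 probe sets). None passed an adjusted p under 0.05, and the test called 0 probe sets without Cre Recurred replicate 1, GFP Recurred replicate 1 or GFP Recurred replicate 2. Many named genes were chosen by their recurred difference, which is part of this test, and 6 by the interaction itself. The number 31 therefore follows partly from the choice. Over all 18193 genes, 98 passed the 1.5-fold and 0.25 thresholds. Values are the log2 difference in recurred cells minus the log2 difference in naïve cells.

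Negative values were found for 19 genes, matrix and secreted ones among them. Lum had -7.65 (standard error 1.31, adjusted p = 0.23), Sfrp1 -6.71 (adjusted p = 0.17), Ccl11 -5.87 (adjusted p = 0.17), Chil1 -5.69, Tnfrsf11b -4.51, Tfpi2 -3.86 and Rbp4 -3.60. In Wnt signalling, Wnt4 had -3.30, Ror2 -3.25 and Ror1 -2.24. The chaperone genes Hspa1a and Dnaja4 had -3.49 and -2.05. Rpl39l had -7.29 (standard error 1.08, adjusted p = 0.18), AW551984 -6.10, Tshz2 -4.01, 2210016F16Rik -3.70, Stag3 -2.52, Klhl23 -2.29 and Rgs4 -1.76.

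Positive values were found for 12 genes. Mcpt8 had 5.49 (standard error 0.86, adjusted p = 0.19), Dppa2 3.02 (adjusted p = 0.17), Adcy7 2.59, Ap1s3 2.58, Gm31445 2.499, Dcaf8l 2.29, Rgs20 2.23, Loxl4 2.15, Klhl32 2.11 and Iqcg 1.94. The survival gene Bcl2 had 1.67 (adjusted p = 0.24) and the crosslink repair gene Fanca 1.205 (adjusted p = 0.22).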

How the results depend on the processing

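All 325 probe sets called at the stricter threshold kept their sign under every alternative in which they were measured. Their sign could hardly have changed. The arrays of the compared groups did not overlap for any of them, so leaving out an array could not reverse a sign. Other priors, treat and the SAM-type statistic leave the difference itself as it was. The count at the study's thresholds, 3988, became 1375 with treat at 1.2-fold and lay between 42 and 4985 with 1 array left out. The stricter count, 325, became 1714 with a SAM-type statistic, 1588 with the compared arrays alone and 81 with treat, and lay between 0 and 1070 with 1 array left out. The interaction count of 180 became 61 with treat and lay between 0 and 2953 with 1 array left out. The stricter interaction count of 0 became 4 with a trended and robust prior, with median centring and without shared-probe suffixes, and lay between 0 and 206 with 1 array left out. The lowest and highest values rest on few arrays per group, and the cause of the other changes was not tested. With the replicate number as a block, the stricter count was 150, 124 of them among the 325, and the other counts were 4133, 190 and 0. The labels do not say whether same-numbered samples belong together. Correlations of same-numbered deviations ran from -0.25 to 0.31, and the highest was between the compared groups, GFP Recurred and Cre Recurred. Whether the numbers pair the samples is therefore left undecided. The SAM-type statistic and the compared arrays alone were not run for the interaction.

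Other probe sets of named genes had the opposite sign, with log2 differences near 0. They were -0.069 for Klhl32, -0.12 and -0.11 for Rbl1, -0.019 for Cdt1, 0.33 and 0.13 for Ror1, 0.15 for Tgfb1, 0.015 for Inhbb, 0.12 for Col14a1, 0.0046 for Itga8, -0.041 for Itgb1, 0.058 for Rgs2, 0.030 and 0.27 for Bcl2l2, 0.050 for Zbtb4, 0.025 for Plagl1, 0.11 for Pfkfb3 and 0.030 for 2210016F16Rik.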

Other observations

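The genes with the largest positive differences of all passed only the study's thresholds and were chosen after their values were seen. Asb5, an ankyrin repeat gene with a SOCS box known from muscle, had 9.53 and 8.82 in Cre Recurred cells and 2.99 and 3.28 in GFP Recurred cells (log2 difference 6.04, standard error 1.25, adjusted p = 0.081 from limma). Efemp1, a fibulin of the matrix, had 10.69 and 10.86 in Cre Recurred cells and 6.37 and 6.15 in GFP Recurred cells (4.52, adjusted p = 0.098). The forkhead gene Foxc2 had 9.38 and 8.63 in Cre Recurred cells and 4.54 and 4.87 in GFP Recurred cells (4.30, adjusted p = 0.073), and monoamine oxidase B (Maob) had 7.17 and 7.30 and, in GFP Recurred cells, 2.86 and 3.13 (4.24, adjusted p = 0.13). The naïve arrays spread widely for these genes. Asb5 had 3.55 and 7.85 in Cre Naïve cells and 5.00 and 6.69 in GFP Naïve cells, and Efemp1 9.67 and 10.69 in Cre Naïve cells and 11.59 and 7.84 in GFP Naïve cells.

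Of the developmental transcription factors, 5 were higher and 15 lower at the study's thresholds. Zic1 had a log2 difference of 3.42 (adjusted p = 0.098), Ebf3 2.27 (adjusted p = 0.11), Msx2 2.03 (adjusted p = 0.15) and Gata6 1.47 (adjusted p = 0.059), while Dmrt2 had -5.26 (adjusted p = 0.097). These were also chosen after their values were seen, and none passed the stricter threshold.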
